A study of Mus musculus with 12 samples.

Results

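The 10 genes described here are transcripts by which regulatory T cells are usually recognised: Foxp3, Il2ra, Ikzf2, Ctla4, Tnfrsf18, Tnfrsf4, Lrrc32, Nrp1, Gpr83 and Il10. They were chosen by name from 35275 genes in the table of FPKM values (fragments scaled for transcript length and for the size of the library), after Ensembl identifiers had been matched to mouse symbols. RNA-Seq had been carried out on CD4+ T cells of 12 female mice aged 9 to 12 weeks, with 1 library per mouse and 3 mice in each of 4 groups. B6 (C57BL/6J) and SLE123 mice had either been left untreated or been given anti-CD45RB. SLE123 is the lupus-prone congenic strain that carries the Sle1, Sle2 and Sle3 regions of NZM2410 on a B6 background in every cell, so that a strain difference covers all genes of these regions and not a single allele. Anti-CD45RB is the tolerising antibody clone MB23G2, which binds a splice form of the phosphatase CD45, and it was injected intraperitoneally at 100 μg in 5 doses between day 0 and day 7. The cells were enriched by depleting other cells on magnetic columns. The methods also describe a split into CD25+ and CD25- cells, but no title names either fraction, so a library cannot be told apart as one or the other.

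Regulatory T cells are the CD4+ lineage that restrains other lymphocytes, and the transcription factor Foxp3 sets and maintains their identity. Il2ra encodes CD25, the chain that gives the IL-2 receptor its high affinity, and IL-2 signalling through STAT5 keeps Foxp3 expressed. Ikzf2 (the transcription factor Helios) and Nrp1 (neuropilin-1) are typical of regulatory T cells formed in the thymus, while Ctla4, Tnfrsf18 (GITR), Tnfrsf4 (OX40) and Il10 are also made by other activated T cells, and Il10 by B cells and plasma cells too. All 10 are protein-coding genes, at chrX:7573644-7595245 (Foxp3), chr2:11642807-11693193 (Il2ra), chr1:69531214-69687245 (Ikzf2), chr1:60887000-60915832 (Ctla4), chr4:156026164-156028895 (Tnfrsf18), chr4:156013843-156016612 (Tnfrsf4), chr7:98489283-98502181 (Lrrc32), chr8:128358604-128503363 (Nrp1), chr9:14860210-14870789 (Gpr83) and chr1:131019845-131024974 (Il10) on GRCm38, with Ikzf2 alone on the minus strand. In bulk RNA of this kind, a larger share of cells of one type and more RNA per cell cannot be told apart.

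Libraries held 13562933 to 23641603 fragments (median 16827791), recovered from the steps of the FPKM values. A gene with a transcript of 2000 bases reached 3 fragments at 0.0634 to 0.111 FPKM, depending on the library, and this limit covers counting error only. The lowest member was Il10 in B6 mice, with 5 to 31 fragments per library, and each of the other 9 genes had at least 63 fragments in every library. Summed over 9 T cell genes, T cell markers lay between 2024 and 2695 FPKM in all 12 libraries, and Cd4 between 237 and 327 FPKM. Other cells were also seen. The summed markers of B cells, CD8 T and natural killer cells, monocytes and neutrophils, platelets, and basophils and mast cells, among others, were higher in every treated B6 library than in any untreated one, and plasma cell, T follicular helper and proliferation markers were higher in every SLE123 library than in any B6 library. The library of SLE123 untreated replicate 3 stood apart by the highest B cell (223 FPKM) and lowest T cell sums, and that of SLE123 anti-CD45RB replicate 1 by liver transcripts (36.8 FPKM summed over 4 genes, against at most 0.207 in the other SLE123 libraries and 32.5 to 39.0 in the B6 libraries). The part of these cells in the results below was not tested, and the values that moved with a result are given beside it.

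**Figure D1:**
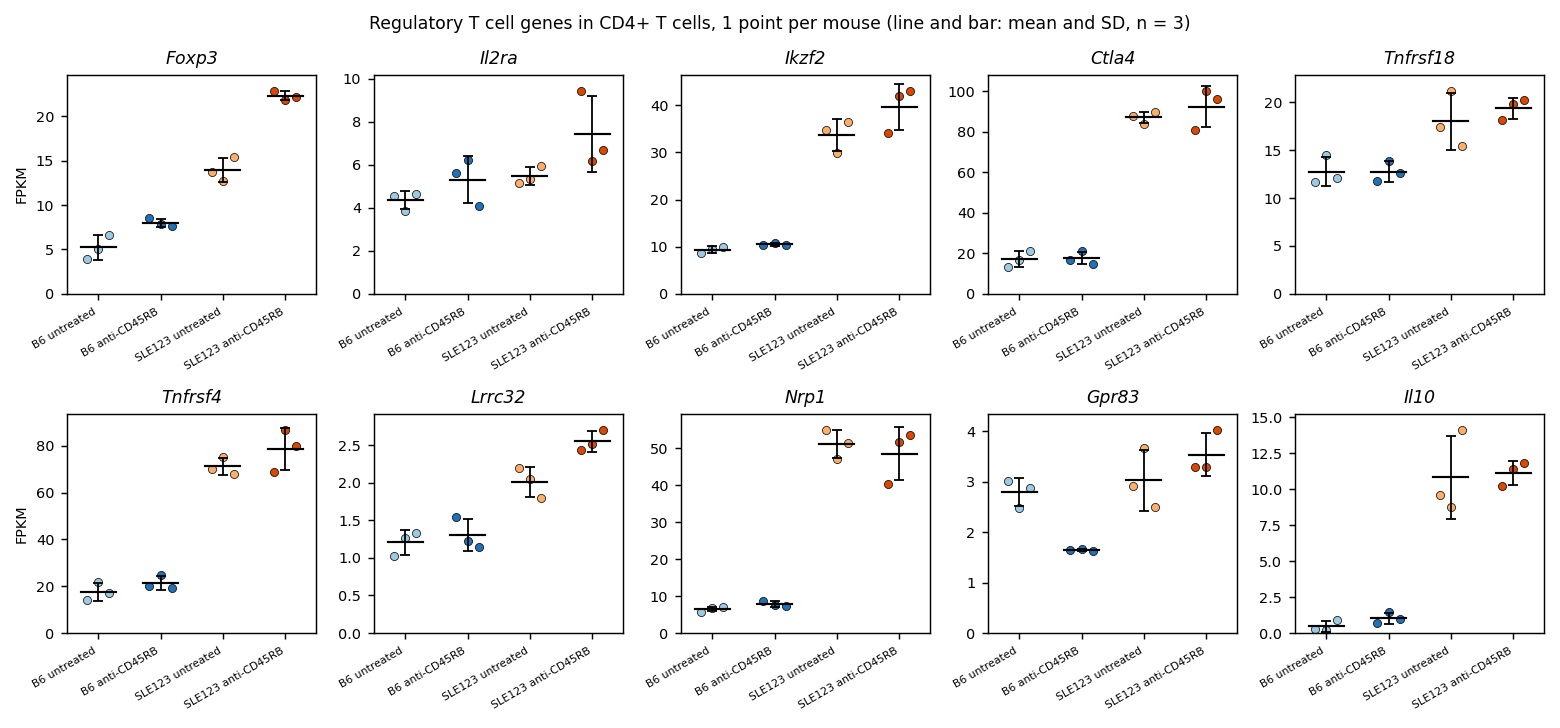
Level of each of the 10 genes in FPKM (vertical axes start at 0) in the 4 groups, with 1 point per mouse, a line at the mean and a bar of 1 SD (n = 3). Foxp3 stepped up from 5.22 to 8.02, 13.9 and 22.3 FPKM over the groups, Nrp1, Ctla4, Tnfrsf4 and Ikzf2 separated the strains, and Gpr83 was lowest in treated B6 mice (1.65 FPKM).

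The first question was whether treatment changed these transcripts within a strain. After anti-CD45RB, Foxp3 was on average 1.54 times its untreated level in B6 and 1.6 times in SLE123. None of the 10 genes was called as higher within a strain, where 14.9% of all genes were called in B6 (8.74% as higher) and 0.0381% in SLE123. Gpr83 alone passed the test, and it fell in B6. Foxp3 was 3.93, 5.09 and 6.65 FPKM in untreated B6 replicates 3, 4 and 5, and 8.54, 7.87 and 7.65 FPKM in treated B6 replicates 1, 3 and 5. It was 13.7, 12.7 and 15.4 FPKM in untreated SLE123 replicates 1, 2 and 3, and 22.9, 21.9 and 22.2 FPKM in treated ones. All 4 groups were thus free of overlap, in the order B6 untreated, B6 treated, SLE123 untreated and SLE123 treated. The coefficient of variation was 5.79% with treatment against 26.1% without it in B6, and 2.37% against 9.60% in SLE123. Treated libraries held 444 to 494 fragments of Foxp3 in B6 and 1479 to 1581 in SLE123. Counting error alone is about as large as the treated values at these numbers. A narrower spread between mice was therefore not read from them, and the spreads were not tested. Of all 13115 genes tested, 3.13% were higher after treatment without overlap in both strains, and Foxp3 was the only member among them.

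Neither within-strain difference of Foxp3 passed the test. In B6 the difference was 0.56 on the log2(FPKM + 1) scale (SE 0.153, adjusted p = 0.0536 by limma with Benjamini-Hochberg adjustment over all genes tested). The SLE123 difference was 0.65 (SE 0.0862), with an unadjusted p of 0.000128 and an adjusted p of 0.0989 in the limma fit. When the effect was averaged over the strains in a limma fit of all 12 mice, which was chosen after these values were seen, Foxp3 rose by 0.60 (SE 0.0921, adjusted p = 0.00547) and was higher in each of 6 treated mice than in any untreated mouse of the same strain. It was the only member called there, where 2.66% of genes were called as higher. The treatment effects of the strains on Foxp3 differed by 0.09 (SE 0.184, limma adjusted p = 0.79). Without SLE123 untreated replicate 3 the SLE123 difference was 0.72 (limma adjusted p = 0.102), and without SLE123 anti-CD45RB replicate 1 it was 0.63 (adjusted p = 0.436). In B6 it was past the threshold without untreated replicate 5, the highest of its group (0.72, limma adjusted p = 0.0227).

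**Figure D2:**
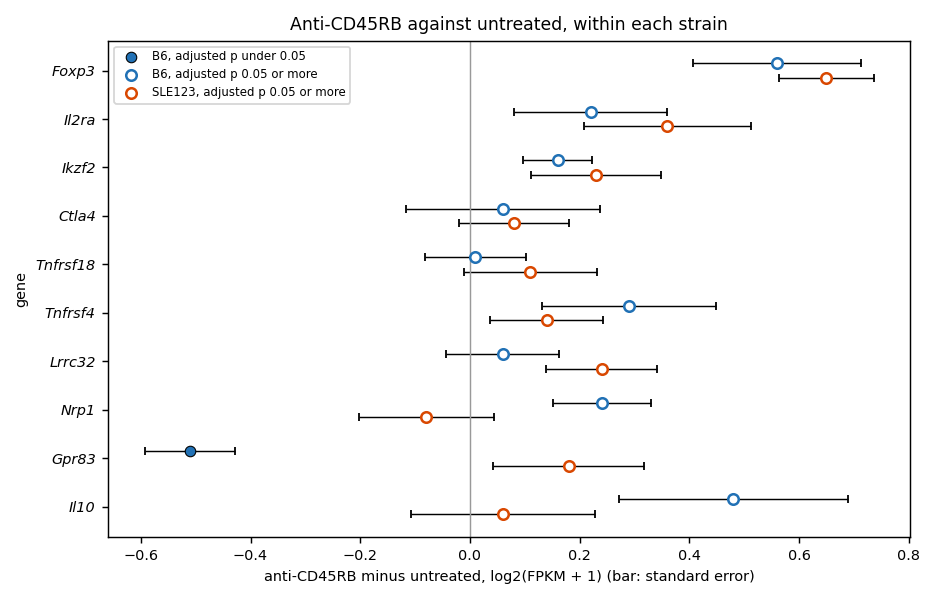
Difference between treated and untreated mice for each gene on the log2(FPKM + 1) scale, in B6 (blue) and SLE123 (orange), with the standard error of the limma fit. Filled points passed an adjusted p of 0.05, which only Gpr83 in B6 did (-0.51). Foxp3 lay at 0.56 and 0.65, and Nrp1 and Il10 lay nearer to 0 in SLE123 than in B6.

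In the annotation Foxp3 shares exonic bases with neighbours on both strands, which matters here because the strand setting of the counting is not given in the sources used here. The non-coding RNA Flicr covers 18.6% of its exonic bases while Ccdc22 and Ppp1r3f, both on the opposite strand, cover 12.9% and 5.81%. Flicr was at a mean of 0.492 to 1.03 FPKM in the groups, while Ccdc22 was listed at 0 in 3 of the groups and at a mean of 0.0136 FPKM in untreated SLE123 mice. Ppp1r3f averaged 4.4 and 3.48 FPKM in untreated and treated B6 mice, and 2.07 and 2.38 FPKM in SLE123 mice. How many fragments of these genes were counted under Foxp3 was not tested.

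Gpr83 encodes an orphan G protein-coupled receptor that regulatory T cells express strongly. It was 3.01, 2.48 and 2.87 FPKM in untreated B6 replicates 3, 4 and 5, and 1.64, 1.66 and 1.63 FPKM in treated B6 replicates 1, 3 and 5. Every treated B6 mouse lay below every untreated one. The treated mice had a CV of 0.935%, at 95 to 117 fragments per library. Counting error alone is larger than that at so few fragments, so this closeness was not read as a small spread between mice. Gpr83 fell by 0.51 on the log2(FPKM + 1) scale (SE 0.0826, limma adjusted p = 0.0114). In B6, 14.9% of all genes passed the test (6.12% as lower), so that 1 of 10 members was no more than the share among all genes. In SLE123 it was 2.91, 3.67 and 2.49 FPKM in untreated and 3.29, 3.28 and 4.02 FPKM in treated mice, and these groups overlapped (difference 0.18, SE 0.138, limma adjusted p = 0.607).

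The effects in the strains differed for Gpr83 by 0.69 (SE 0.16, limma adjusted p = 0.0411), where 3.64% of genes were called. It was the only member whose treatment effect depended on strain by that test. Leaving out 1 mouse at a time gave limma adjusted p-values from 0.0143 to 0.103, above the threshold for 10 of 12 mice, with 0.0656 without SLE123 untreated replicate 3 and 0.07 without SLE123 anti-CD45RB replicate 1. Under 4 other scalings of the libraries it was 0.0505 to 0.145.

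Of the 7 members with a RefSeq promoter window, 200 bases are shown for the 4 whose window has no annotated exon upstream. Among them Gpr83 fell in treated B6 mice, and Ctla4 and Nrp1 were far higher in SLE123. Il2ra was not called in any comparison of FPKM values as deposited. The stretches are from RefSeq on GRCm38.p6, plus strand, 5′ to 3′, and end 1 base before the start site. They lie at chr9:14860010-14860209 (Gpr83), chr1:60908825-60909024 (Ctla4), chr8:128358873-128359072 (Nrp1) and chr2:11642592-11642791 (Il2ra). The Ctla4 and Nrp1 stretches lie inside the gene spans given above, which begin further upstream. Capitals mark the motif matches found, on either strand: in Gpr83 the core of the cAMP response element, TGACG, read as its complement, and in the other genes the NFAT core, GGAAA.
Gpr83: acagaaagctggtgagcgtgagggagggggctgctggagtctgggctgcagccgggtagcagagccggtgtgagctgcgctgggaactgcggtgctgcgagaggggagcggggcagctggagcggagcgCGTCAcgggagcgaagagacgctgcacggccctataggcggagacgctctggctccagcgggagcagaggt
Ctla4: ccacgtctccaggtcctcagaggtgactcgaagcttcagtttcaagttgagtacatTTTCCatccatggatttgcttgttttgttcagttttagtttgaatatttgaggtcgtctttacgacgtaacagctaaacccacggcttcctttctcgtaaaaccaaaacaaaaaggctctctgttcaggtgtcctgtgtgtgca
Nrp1: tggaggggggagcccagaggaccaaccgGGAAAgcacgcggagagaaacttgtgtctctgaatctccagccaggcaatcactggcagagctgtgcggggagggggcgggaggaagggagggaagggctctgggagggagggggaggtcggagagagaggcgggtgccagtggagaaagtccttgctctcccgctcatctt
Il2ra: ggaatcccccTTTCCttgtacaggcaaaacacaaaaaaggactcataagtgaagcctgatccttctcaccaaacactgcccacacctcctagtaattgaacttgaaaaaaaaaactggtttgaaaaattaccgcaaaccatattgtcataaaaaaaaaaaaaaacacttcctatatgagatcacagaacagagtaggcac

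RefSeq held a promoter window (250 bases before to 50 after the start site) for 7 of the 10 genes, with 2 windows for Foxp3. Gpr83 was the only one of the 7 with TGACG, at 71 to 67 bases before its start, a motif found in 20.8% of all 32851 promoter windows. The full element TGACGTCA (1.79% of windows) and the forkhead motif TGTTTAC (3.65%) were in no member's window. GGAAA was in a window of each of the other 6 genes and in 61.3% of all windows, and the STAT motif TTCNNNGAA (8.30% of windows) was in a window of Tnfrsf18 and of Foxp3, where 1 match shared 4 bases with a GGAAA match. The STAT matches, and the GGAAA matches of Foxp3 and Tnfrsf4, lay in annotated exons. Such exons covered all 250 bases before the start site in each Foxp3 window, 166 in Tnfrsf4 and 158 in Tnfrsf18. The guanine and cytosine content of the 200 bases was 69.0% in Gpr83, 64.0% in Nrp1, 43.5% in Ctla4 and 37.5% in Il2ra. A match of letters is a description and not a site of binding.

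Il2ra was 4.55, 3.87 and 4.66 FPKM in untreated and 5.61, 6.24 and 4.08 FPKM in treated B6 mice, and 5.13, 5.34 and 5.95 FPKM in untreated and 9.44, 6.18 and 6.67 FPKM in treated SLE123 mice. The B6 groups overlapped and the SLE123 groups did not, with treated replicate 1 well above the rest. Its differences were 0.22 in B6 (SE 0.14, limma adjusted p = 0.317) and 0.36 in SLE123 (SE 0.152, adjusted p = 0.469), the latter 0.2 without that mouse. Among 10 genes of the IL-2 and STAT5 pathway, 3 rose in treated B6 mice, namely Il2rb (90.9 ± 1.71 to 146 ± 18.1 FPKM, mean ± SD, n = 3, adjusted p = 0.00429), Il2rg and the STAT5 target Cish (4.18 ± 0.452 to 5.82 ± 0.363 FPKM, adjusted p = 0.0274 by limma), and Jak3 fell, where 8.74% of all genes rose and 6.12% fell. Il2rb is also strongly expressed by natural killer cells. In the same B6 mice the summed markers of CD8 T and natural killer cells went from 24.2 to 26.9 FPKM up to 38.7 to 44.3 FPKM and Ncr1, a natural killer cell receptor gene, from a mean of 0.349 to 5.73 FPKM, and their part in the change of Il2rb was not tested. None of the 10 was called in SLE123, where 3 had an unadjusted p under 0.05 (10.4% of all genes did).

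Ikzf2 and Nrp1 were higher in every treated than in every untreated B6 mouse, by little. Ikzf2 was 8.67, 9.44 and 10 FPKM in untreated and 10.4, 10.8 and 10.3 FPKM in treated B6 mice (difference 0.16, SE 0.0628, limma adjusted p = 0.141). Nrp1 was 5.81, 6.65 and 7.05 FPKM in untreated and 8.62, 7.72 and 7.26 FPKM in treated B6 mice (0.24, SE 0.0894, limma adjusted p = 0.115). With Foxp3 and Gpr83 they made 4 of 10 members without overlap in B6, where 38.0% of all genes had none. In treated SLE123 mice both genes overlapped with untreated mice (Ikzf2 0.23, SE 0.119; Nrp1 -0.08, SE 0.123; limma adjusted p = 0.484 and 0.795). In SLE123, 3 of 10 members had no overlap, namely Foxp3, Il2ra and Lrrc32, against 19.7% of all genes.

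None of the genes of effector function passed the test with treatment. Ctla4, the inhibitory receptor for CD80 and CD86, was 13.3, 16.5 and 21.2 FPKM in untreated and 16.9, 21 and 14.9 FPKM in treated B6 mice (difference 0.06, SE 0.177), and 0.08 higher in treated SLE123 mice (SE 0.1). For Tnfrsf18 the differences were 0.01 (SE 0.0921) and 0.11 (SE 0.121), and for Tnfrsf4 they were 0.29 (SE 0.159) and 0.14 (SE 0.103), in B6 and SLE123 in that order. Lrrc32 encodes GARP, which holds latent TGF-β on the cell surface. It differed by 0.06 in B6 (SE 0.103) and by 0.24 in SLE123 (SE 0.101, unadjusted p = 0.0505 and adjusted p = 0.469 in the limma fit). Il10, which encodes an anti-inflammatory cytokine, was 0.284, 0.211 and 0.901 FPKM in untreated and 0.675, 1.45 and 0.953 FPKM in treated B6 mice. Its B6 groups overlapped (0.48, SE 0.209, adjusted p = 0.166 by limma), and it differed by 0.06 in SLE123 (SE 0.168). In B6, 4 members had an unadjusted p under 0.05 (32.3% of all genes did), and in SLE123 there were 2, Foxp3 and Il2ra (10.4% of all genes).

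Libraries of treated B6 mice differed from untreated ones in other cells as well. The summed B cell markers were 6.11 to 7.3 FPKM in untreated and 25 to 33.5 FPKM in treated B6 mice (5 of 6 genes called higher), and those of monocytes, macrophages and neutrophils were 4.39 to 9.23 and 48.7 to 114 FPKM (5 called higher of 7, all that passed the filter). Those of CD8 T and natural killer cells were 24.2 to 26.9 and 38.7 to 44.3 FPKM (1 called higher of 3 that passed the filter). Ncr1, which encodes a natural killer cell receptor, averaged 0.349 FPKM without treatment and 5.73 FPKM with it in B6. T cell markers were 2589 to 2695 FPKM in untreated B6 mice and 2491 to 2568 FPKM in treated ones. The same treatment of SLE123 mice went with lower basophil and mast cell markers (93.1 to 105 against 27.3 to 34.7 FPKM, 2 of 4 genes called lower). In SLE123 mice the B cell sum was also lower without overlap after treatment (62 to 223 and then 36.7 to 56.5 FPKM), as were those of plasma cells (1939 to 5021 and then 1038 to 1906 FPKM) and of erythroid cells (25.5 to 41.3 and then 2.49 to 13.8 FPKM), and that of CD8 T and natural killer cells was higher (9.45 to 11.4 and then 16.3 to 19.7 FPKM). No gene of these 4 lists was called in SLE123. The part of these cells in the differences of Foxp3 in both strains and of Gpr83 in B6 was not tested.

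**Figure D3:**
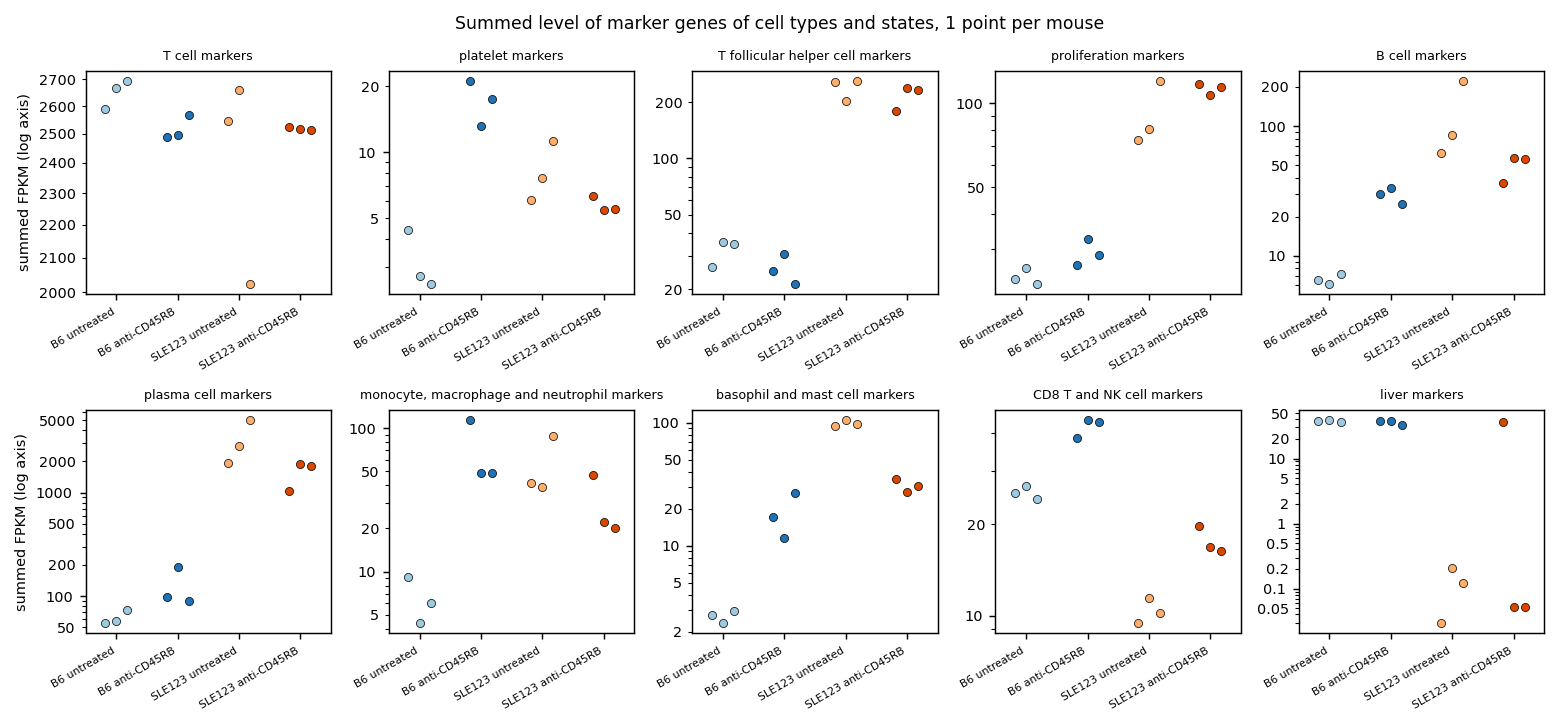
Summed FPKM of marker genes for 10 cell types or states in each mouse (log axes). B cell, monocyte and neutrophil, and CD8 T and natural killer cell markers were higher in every treated than in every untreated B6 mouse, T follicular helper and proliferation markers were higher in every SLE123 than in every B6 mouse, and liver markers reached 36.8 FPKM in 1 SLE123 mouse.

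A list of 37 other genes known to be higher in regulatory than in conventional T cells was read beside the members. In treated B6 mice 14 of the 37 rose and 1 fell, with a median difference of 0.29 against -0.002 over all genes tested, while 8.74% of all genes rose. Lgals1, which encodes a galectin, rose from 81.9 ± 5.32 to 203 ± 9.71 FPKM (adjusted p = 0.000274 by limma), and the inhibitory receptor gene Klrg1 from 0.87 ± 0.0695 to 4.88 ± 0.457 FPKM (adjusted p = 0.000363). S100a6 and S100a4, which encode calcium-binding proteins, rose by 0.94 and 1.23, and Gzmb, the granzyme of cytotoxic lymphocytes, by 1.30. Klrg1 and Gzmb are also expressed by natural killer cells, whose summed markers were higher in the same libraries. Those of monocytes, macrophages and neutrophils went from 4.39 to 9.23 FPKM up to 48.7 to 114 FPKM in the same B6 mice. The part of any of these cells in the rise of the listed genes, Lgals1, S100a4 and S100a6 among them, was not tested. The gene that fell was Izumo1r, the folate receptor 4 of regulatory T cells (87.7 ± 9.41 to 53.1 ± 11.4 FPKM, limma adjusted p = 0.0227), and it is named because it stood alone. In treated SLE123 mice none of the 37 was called by limma (5 had an unadjusted p under 0.05, as did 10.4% of all genes). The median difference there was 0.05 against 0.038 over all genes. By the limma test of the difference between strains, 6 of the 37 genes had a lower effect in SLE123 than in B6, where 2.38% of all genes did, among them S100a4 (-1.35, SE 0.174), S100a6 (-1.17, SE 0.163), Lgals1 (-0.92, SE 0.101) and Klrg1 (-1.56, SE 0.245).

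Of 12 genes known to be lower in regulatory T cells, 1 rose and 2 fell in treated B6 mice (Dapl1, Tcf7 and Actn1 were called). Of all genes, 8.74% rose and 6.12% fell there. None of the 12 was called by limma in SLE123, where 1 had an unadjusted p under 0.05, as did 10.4% of all genes. These shares of all genes also apply to the lists that follow in this paragraph. Factors that act on Foxp3 were mostly without a call. Of 23 such genes, Gata3 rose (23.3 ± 0.694 to 29.1 ± 1.69 FPKM, limma adjusted p = 0.0129) and Nr4a3 fell in treated B6 mice (4.88 ± 0.332 to 3.2 ± 0.43 FPKM, adjusted p = 0.0217), and none was called in treated SLE123 mice, where 4 had an unadjusted p under 0.05. Of 12 ligands and receptors listed as partners of the members or of their ligands, 10 passed the filter. Il10ra, the ligand-binding chain of the IL-10 receptor, rose from 11.7 ± 0.335 to 20.7 ± 0.846 FPKM in B6 (adjusted p = 0.000574) and was 25.8 ± 1.59 and 22.2 ± 0.827 FPKM in untreated and treated SLE123 mice (difference between the strains' effects -0.98, SE 0.0833, adjusted p = 0.000325 by limma). Il10rb also rose in B6, and Cd28 fell (71.2 ± 4.53 to 60.4 ± 1.85 FPKM, limma adjusted p = 0.0287). None of the 10 was called in treated SLE123 mice, where 2 had an unadjusted p under 0.05.

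The second question was how lupus-prone mice differed from B6 mice. Among untreated mice 8 of the 10 genes were higher in SLE123 and none was lower, where 22.8% of all genes were called as higher, and among treated mice 9 of 10 were higher, where 29.6% were. The median difference of the members was 1.51 in untreated and 1.59 in treated mice, against -0.025 and 0.028 over all genes. The sizes were very unequal. Il10, Nrp1, Ctla4, Tnfrsf4 and Ikzf2 were 3.59 to 23.3 times as high in untreated SLE123 as in untreated B6 mice, Foxp3 2.66 times, and Lrrc32 and Tnfrsf18 1.66 and 1.41 times.

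**Figure D4:**
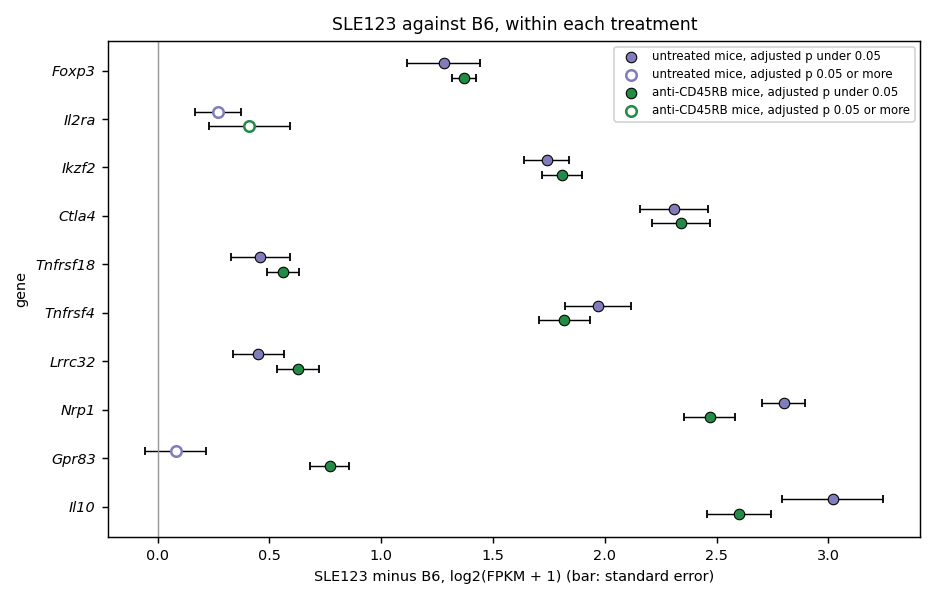
Difference between SLE123 and B6 mice for each gene on the log2(FPKM + 1) scale, in untreated (purple) and anti-CD45RB-treated mice (green), with the standard error of the limma fit. Filled points passed an adjusted p of 0.05. Il10 (3.02) and Nrp1 (2.8) differed most in untreated mice, Il2ra passed the test in neither comparison, and Gpr83 did so in treated mice (0.77) but not in untreated ones (0.08).

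Nrp1 encodes a co-receptor of semaphorins and VEGF. It was 54.9, 47.2 and 51.4 FPKM in untreated SLE123 mice, and 40.3, 51.7 and 53.5 FPKM in treated ones, against 5.81 to 8.62 FPKM over all 6 B6 mice. The strains were thus far apart under either treatment (2.8, SE 0.0961, limma adjusted p = 3.9e-06 in untreated mice and 2.47, SE 0.114, adjusted p = 2.5e-05 in treated mice). Nrp1 is also expressed by plasmacytoid dendritic cells, whose 4 markers together reached at most 2.58 FPKM in SLE123 mice and 6.76 FPKM in treated B6 mice. The part of these cells was not tested.

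Ikzf2, the other gene linked to thymic origin, was 34.8, 29.8 and 36.5 FPKM in untreated and 34.1, 42.0 and 43.1 FPKM in treated SLE123 mice, all above the highest B6 mouse at 10.8 FPKM. It was higher by 1.74 in untreated mice (SE 0.1, limma adjusted p = 2.8e-05) and by 1.81 in treated mice (SE 0.0884). Its relative Ikzf4 (Eos) was the only gene of the list of 37 that was not called in untreated mice (3.14 ± 0.369 FPKM in B6 and 4.02 ± 0.748 FPKM in SLE123, limma adjusted p = 0.143).

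Ctla4 was 87.8, 83.8 and 89.5 FPKM in untreated and 81.0, 100.2 and 96.0 FPKM in treated SLE123 mice, against 13.3 to 21.2 FPKM in B6 mice. It was higher in SLE123 by 2.31 in untreated (SE 0.15, limma adjusted p = 4.6e-05) and by 2.34 in treated mice (SE 0.13). Of the related genes beside it on chromosome 1, Icos, 62094 bases beyond Ctla4, was higher in untreated SLE123 mice by 1.57 (limma adjusted p = 2.9e-05), and Cd28, 113640 bases before it, differed by -0.07 (SE 0.151, adjusted p = 0.737).

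Tnfrsf4 and Tnfrsf18, both receptors of the TNF family, lie 9551 bases apart on chromosome 4 and differed between the strains by unequal amounts. Tnfrsf4 was 70.0, 75.4 and 68.1 FPKM in untreated and 69.0, 86.7 and 80.1 FPKM in treated SLE123 mice, against 14 to 25 FPKM in B6 mice (1.97, SE 0.146, limma adjusted p = 8.26e-05 in untreated mice). Tnfrsf18 was 17.4, 21.2 and 15.4 FPKM in untreated and 18.1, 19.8 and 20.2 FPKM in treated SLE123 mice, against 11.7 to 14.5 FPKM in B6 mice (0.46, SE 0.134, limma adjusted p = 0.0285). Both were without overlap between strains, but Tnfrsf4 relative to Tnfrsf18 in the same mouse was 1.51 higher in untreated SLE123 than in B6 mice (exact two-sided permutation test, p = 0.1, the smallest that 3 against 3 mice allow; this comparison was chosen after the values were seen). An antisense transcript, Gm16008, shares 27.2% of the exonic bases of Tnfrsf18 and was at 1.36 to 1.87 FPKM in the groups.

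Il10 was 9.56, 8.78 and 14.1 FPKM in untreated and 10.2, 11.4 and 11.8 FPKM in treated SLE123 mice, against 0.211 to 1.45 FPKM in B6 mice. No B6 mouse came near the lowest SLE123 mouse (3.02, SE 0.227, limma adjusted p = 8.72e-05 in untreated mice and 2.6, SE 0.142, adjusted p = 4e-05 in treated mice). The ratio of means was 23.3 in untreated mice, where the B6 value rests on 5 to 19 fragments per library, and it was 43.8 without B6 untreated replicate 5, the highest of its group at 0.901 FPKM. Plasma cell markers, which also differed between the strains, summed to 55.1 to 74.2 FPKM in untreated B6 and 1939 to 5021 FPKM in untreated SLE123 mice, and their part in the difference of Il10 was not tested. The mouse with the highest Il10 of untreated SLE123 mice, replicate 3, also had the highest plasma cell sum, and without it the difference of Il10 was 2.82.

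Lrrc32 was 1.02 to 1.55 FPKM in B6 mice, 2.19, 2.05 and 1.8 FPKM in untreated and 2.43, 2.52 and 2.70 FPKM in treated SLE123 mice. The strains did not overlap under either treatment, and the differences were 0.45 (SE 0.115, limma adjusted p = 0.018) in untreated and 0.63 (SE 0.0938, adjusted p = 0.0016) in treated mice. For untreated mice the calls of Lrrc32 and Tnfrsf18 depended on single mice. Without B6 untreated replicate 3 the limma adjusted p was 0.0725 for Lrrc32 and 0.104 for Tnfrsf18, and that of Tnfrsf18 was 0.0931 without B6 untreated replicate 5 and 0.052 without SLE123 untreated replicate 2, while that of Lrrc32 was 0.0533 without B6 untreated replicate 4. The other 6 genes called in untreated mice kept their call when any single mouse was left out. With the libraries rescaled to TPM, which moved the median difference of all genes to -0.379, neither Tnfrsf18 nor Lrrc32 was called (adjusted p = 0.622 and 0.233 by limma), and Il2ra and Gpr83 turned to -0.05 and -0.24. The call was also lost for Lrrc32 with quantile normalization (0.14, limma adjusted p = 0.343) and for Tnfrsf18 without a filter on low values (adjusted p = 0.0757).

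Foxp3 was higher in SLE123 by 1.28 in untreated (SE 0.164, limma adjusted p = 0.000978) and by 1.37 in treated mice (SE 0.053, adjusted p = 1.38e-05). Il2ra differed by 0.27 (SE 0.105, limma adjusted p = 0.0714) and 0.41 (SE 0.18, adjusted p = 0.0956), and the treated groups overlapped. The methods describe a split by CD25, which Il2ra encodes, and no title names a fraction. The part of this split in the values of Il2ra, also relative to Foxp3, cannot be told. In untreated mice Il2ra was called when the libraries were rescaled without immunoglobulin genes (0.38, limma adjusted p = 0.0371) and with voom on recovered fragments (0.36, adjusted p = 0.0484). Gpr83 was much the same in untreated mice of both strains (2.79 ± 0.277 and 3.03 ± 0.596 FPKM, difference 0.08, SE 0.135) and higher in SLE123 among treated mice (1.65 ± 0.0154 and 3.53 ± 0.425 FPKM, 0.77, SE 0.0874, limma adjusted p = 0.000488). Among untreated mice 9 of 10 members did not overlap between the strains, Gpr83 being the exception, against 58.6% of all genes, and among treated mice again 9 of 10, with Il2ra as the exception, against 61.8%.

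Without SLE123 untreated replicate 3 the same number of members, 8, was called in untreated mice, and without SLE123 anti-CD45RB replicate 1 the same number, 9, in treated mice. A strain difference in RNA per cell and one in the share of cells cannot be told apart in this design. In SLE123 mice the markers of T follicular helper cells, which also express Ctla4, Tnfrsf4 and Il10, summed to 180 to 260.2 FPKM against 21.4 to 35.8 FPKM in B6 mice (4 of 4 genes called higher in untreated and in treated mice), and proliferation markers were 73.7 to 120.3 FPKM against 22.6 to 32.7 FPKM. The part of activated and follicular helper T cells in the strain differences of the members was not tested. Ikzf2, Ctla4 and Il10 lie on chromosome 1, Tnfrsf4 and Tnfrsf18 on chromosome 4 and Lrrc32 on chromosome 7, the chromosomes to which the Sle1, Sle2 and Sle3 regions map, but the bounds of these regions were not used here.

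Other genes of regulatory T cells differed the same way between the strains. Of the list of 37, limma called 36 as higher in untreated SLE123 mice (median 1.79, against -0.025 over all genes) and 32 in treated mice, where Klrg1 was lower. Of all genes, 22.8% were called as higher in untreated and 29.6% in treated mice. Lag3, which encodes an inhibitory receptor for MHC class II, was 6.40 ± 1.47 FPKM in untreated B6 and 114 ± 2.44 FPKM in untreated SLE123 mice (3.98, adjusted p = 4.95e-06 by limma). Rgs16, Cd83, S100a6 and the transcription factor gene Maf were higher by 3.45, 2.82, 2.41 and 2.24. In treated mice the TNF receptor gene Tnfrsf1b (26.3 ± 1.75 and 78.5 ± 3.28 FPKM) and Nt5e, which encodes CD73 (15 ± 2 and 79.8 ± 7.97 FPKM), were among those with the smallest limma adjusted p, as were Syt11, Penk and Jak3. Of 12 genes known to be lower in regulatory T cells, 11 were lower in SLE123 mice under either treatment (20.1% of all genes were lower in untreated and 22.5% in treated mice). The summed markers of naive T cells were also lower in SLE123 (2 of 2 genes called under either treatment). They were 534 to 569.8 FPKM in untreated B6 and 133 to 272 FPKM in untreated SLE123 mice. In treated mice they were 503 to 576 and 253 to 360.4 FPKM, and the part of naive cells was not tested. Satb1, a chromatin organiser, was 170.3 ± 8.95 and 51.4 ± 17.0 FPKM in untreated B6 and SLE123 mice, and Id3 was the gene without a call (22.8 ± 1.32 and 23.0 ± 3.77 FPKM). Of the 23 factors that act on Foxp3, limma called 4 as higher and 9 as lower in untreated SLE123 mice and 8 and 9 in treated ones, with Uhrf1, a maintenance factor of DNA methylation, higher by 1.46 in untreated mice. Calls in either direction were made for 42.9% of all genes in untreated and 52.1% in treated mice. Of the 10 genes of the IL-2 and STAT5 pathway it called 3 as higher and 2 as lower in untreated and 5 and 3 in treated mice. Of the 10 tested genes of the list of partners it called 5 as higher and 1 as lower under either treatment. Many of the genes in these lists also change in activated conventional T cells.

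The third comparison set each gene against Foxp3 in the same mouse, as the difference of log2(FPKM + 1) values, which removes most of the effect of how a library was scaled. Exact two-sided permutation tests of 3 against 3 mice cannot give a p below 0.1, so the values are a description. In untreated mice 5 of the 9 other genes were higher relative to Foxp3 in SLE123 than in B6 without overlap, namely Il10 (by 1.74), Nrp1 (1.52), Ctla4 (1.03), Tnfrsf4 (0.69) and Ikzf2 (0.46), whereas 3.89% of all genes were. Gpr83, Il2ra, Lrrc32 and Tnfrsf18 were lower relative to Foxp3 without overlap (-1.2, -1.01, -0.84 and -0.82), as were 86.2% of all genes. In FPKM the ratio of Nrp1 to Foxp3 averaged 1.28 in untreated B6 and 3.69 in untreated SLE123 mice, and that of Il2ra to Foxp3 0.873 and 0.394. In treated mice Il10 (1.23), Nrp1 (1.1), Ctla4 (0.97) and Ikzf2 (0.44) were higher relative to Foxp3 in SLE123 than in B6 without overlap (2.48% of all genes were), and Tnfrsf4 overlapped (0.45). Lower without overlap were again Gpr83, Lrrc32, Tnfrsf18 and Il2ra (-0.6, -0.75, -0.81 and -0.96), as were 93.1% of all genes.

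After treatment most of the 9 genes were lower relative to Foxp3. In B6, 6 of 9 were lower without overlap, from Nrp1 (-0.32) to Gpr83 (-1.07), where 72.2% of all genes were, and Il2ra, Tnfrsf4 and Il10 overlapped. The FPKM ratio of Il10 to Foxp3 averaged 0.0831 in untreated and 0.129 in treated B6 mice, although its difference was -0.08 on the log2(FPKM + 1) scale (0.49 with a pseudocount of 0.1). In SLE123, 7 of 9 were lower without overlap, from Lrrc32 (-0.41) to Nrp1 (-0.73), where 88.1% of all genes were. Ctla4 relative to Foxp3 was 1.53 ± 0.01 in untreated and 1.03 ± 0.24 in treated B6 mice, and 2.56 ± 0.08 and 2 ± 0.19 in SLE123 mice (mean ± SD, n = 3). In untreated B6 mice the SD of this ratio was small although both genes varied (CV 23.2% for Ctla4 and 26.1% for Foxp3). These libraries held 416 to 659 fragments of Ctla4 and 243 to 410 of Foxp3. Counting error alone is larger than an SD of 0.01 at these numbers, so a constant ratio cannot be read from it. All 9 values share Foxp3 and are not independent of each other.

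**Figure D5:**
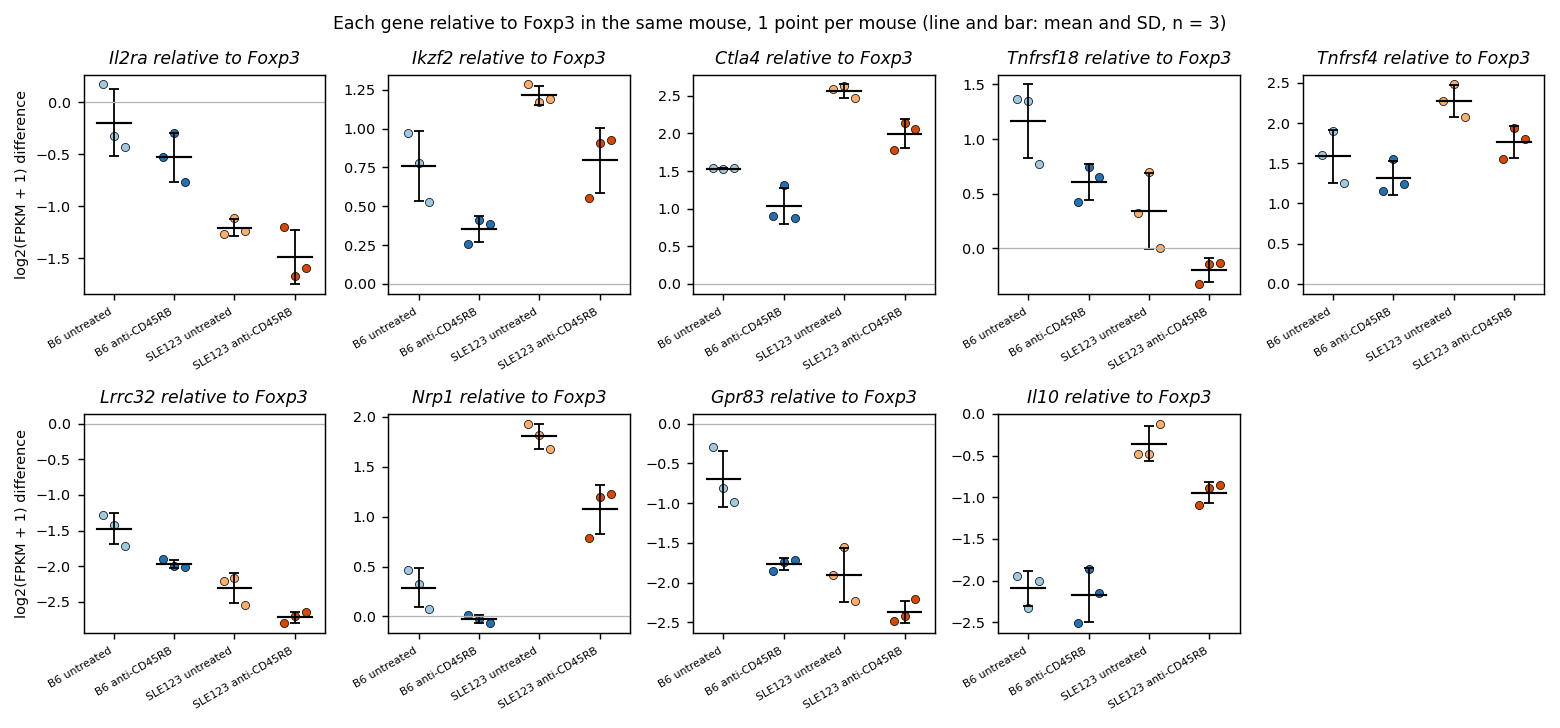
Level of each of the other 9 genes relative to Foxp3 in the same mouse (difference of log2(FPKM + 1), with 0 as equal levels), with 1 point per mouse, a line at the mean and a bar of 1 SD (n = 3). Nrp1 and Il10 were higher relative to Foxp3 in SLE123 (1.81 and -0.36 in untreated mice) than in B6 (0.29 and -2.09), while Il2ra, Tnfrsf18, Lrrc32 and Gpr83 were lower.

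The transcripts whose level over the 12 mice was most like that of Foxp3 were ranked by Pearson's r of log2(FPKM + 1) among the 13115 genes. They were Rgs1 (0.98), Icam1 (0.971), Cd109 (0.97), Hk1 (0.967), Lif (0.964), Nde1 (0.964), Nacc1 (0.963) and Plekho2 (0.963). These r describe 12 points that fall into 4 groups and share libraries, and the correlation of deviations from the group means was 0.85 for Rgs1 and between 0.15 and 0.72 for the other 7. Rgs1, which encodes a regulator of G protein signalling, was 5.39, 6.60, 9.97 and 11.8 FPKM on average in untreated B6, treated B6, untreated SLE123 and treated SLE123 mice, the same order as Foxp3. Of the members Lrrc32 was closest to Foxp3 (r = 0.946, rank 68), followed by Ikzf2 (0.936), Il10 (0.929), Tnfrsf4 (0.923), Ctla4 (0.914) and Nrp1 (0.905), while Tnfrsf18 (0.819), Il2ra (0.775) and Gpr83 (0.498) were least like it.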

How the data were processed

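RNA-Seq of CD4+ T cells gave 1 library per mouse. The authors aligned reads to mm10 with STAR after CASAVA 1.8, as listed in the submitters' processing notes, and deposited FPKM values for 35275 Ensembl identifiers. The counting program, annotation and strand setting are not given in the sources used here. Of the identifiers, 34490 were matched to symbols in GENCODE M21 (GRCm38).

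Values were used as log2(FPKM + 1), so that fold changes of low genes are understated. The fits kept 13115 genes whose average over the 12 mice reached 0.5 FPKM, among them all 10 members. Each comparison of 3 against 3 mice was fitted with limma 3.58.1 (R 4.3.3, lmFit and eBayes with a trend) on its 6 libraries, and the difference between the strains' treatment effects on all 12. P-values, with Benjamini-Hochberg adjustment over all genes tested and a threshold of 0.05, measure the spread between mice. Tables and exact tests used Python 3.11.15, pandas 2.3.3 and SciPy 1.17.1, and plots matplotlib 3.10.9. In all 23230 genes above 0 the FPKM steps gave whole fragments (tolerance 0.0001 fragments), which served for depth and for an alternative fit with voom. No 2 libraries of a group agreed within sampling noise. The fits were tested on simulated data.

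The members and lists were chosen with earlier results of these data known. Named were the members, the 5 genes of the lists with the smallest adjusted p in each comparison, and the 8 genes most like Foxp3. Other list and marker genes were named after their values were seen. The treatment effect averaged over the strains, and Tnfrsf4 relative to Tnfrsf18, were added after seeing the data. Some marker genes are not reported here.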

Additional observations from a re-analysis of the deposited data

Results flagged for a closer look

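Treatment effects on 10 of the members and listed genes differed between the strains by the limma test of the difference on all 12 mice. These genes were 1 of 10 members, 6 of 37 other genes higher in regulatory T cells and 1 of 23 factors acting on Foxp3. The remaining calls were 1 of 10 genes of the IL-2 and STAT5 pathway and 1 of 10 tested partners. Of all genes tested, 3.64% were called, and 2.38% had the lower effect in SLE123. For 3 genes the effect was higher in SLE123. Gpr83 differed by 0.69 (SE 0.16, limma adjusted p = 0.0411), with -0.51 in B6 and 0.18 in SLE123. As given above, this call of Gpr83 was lost when most single mice were left out. Jak3 differed by 0.51 (SE 0.117, limma adjusted p = 0.041), with -0.3 and 0.21, and Kat5 by 0.34 (SE 0.0842, limma adjusted p = 0.0492), with -0.12 and 0.23. The other 7 had the lower effect in SLE123. Il10ra differed by -0.98 (SE 0.0833, limma adjusted p = 0.000325), with 0.77 in B6 and -0.21 in SLE123. Lgals1 differed by -0.92 (SE 0.101, limma adjusted p = 0.00131), with 1.3 in B6 and 0.38 in SLE123. S100a4 differed by -1.35 (SE 0.174, limma adjusted p = 0.003), with 1.23 and -0.12. S100a6 differed by -1.17 (SE 0.163, limma adjusted p = 0.00404), with 0.94 and -0.23. Klrg1 differed by -1.56 (SE 0.245, limma adjusted p = 0.00683), with 1.65 and 0.09. Penk differed by -0.79 (SE 0.161, limma adjusted p = 0.0252), with 0.5 and -0.29, and Hopx by -0.98 (SE 0.211, limma adjusted p = 0.0307), with 0.75 and -0.24. The summed markers of B cells, CD8 T and natural killer cells, and monocytes and neutrophils were higher in every treated than in every untreated B6 mouse, and their part in these differences was not tested.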

How the results depend on the processing

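Of the 10 members, 8 were called in untreated and 9 in treated mice of the 2 strains, and none in SLE123 after treatment, where no alternative called any. Foxp3 in B6 passed the threshold with a filter at 1 FPKM (limma adjusted p = 0.0468), median centring (0.0455), quantile normalization (0.0487), T cell marker centring (0.0251), a robust fit (0.0412), voom (0.00672) and all 12 mice in 1 fit (0.0288). Voom also called Ikzf2 (0.0474) and Nrp1 (0.0375) there. Between untreated strains Il2ra was called without immunoglobulin genes (limma adjusted p = 0.0371) and with voom (0.0484), and calls were lost for Lrrc32 with quantile normalization (0.343) and for Tnfrsf18 without a filter (0.0757). The cause of these changes was not tested.

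Genes called in B6 numbered 1948, 1134 without a filter and 815 with all 12 mice in 1 fit. In SLE123 they numbered 5, against 21 with TPM, 3 with voom and 53 with all 12 mice. Centring on T cell markers gave 220 in place of 478 for the difference between the strains' effects and 149 in place of 425 for the averaged effect. Leaving out each mouse gave 675 to 1393 in B6, 1 to 7 in SLE123, 3672 to 6469 between untreated strains (5621 with all), 205 to 2917 for the difference between effects and 196 to 1117 for the averaged effect. The lowest count came without B6 untreated replicate 4 in each of these but SLE123, and the highest without SLE123 untreated replicate 1 in the last 3.

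Whether replicate numbers pair the mice cannot be settled from these values. In deviations from the group means, treated and untreated mice of the same number correlated at -0.14 and -0.094 in B6. In SLE123 they correlated at 0.137, -0.161 and 0.266. Mice of unlike number correlated at -0.134 to 0.2 in B6 and at -0.327 to 0.211 in SLE123. With the replicate block 0 genes were called in B6, 3414 between treated strains, 34 for the difference between effects and 43 for the averaged effect. The block left 1 residual degree of freedom to estimate the spread in B6 and between treated strains. It left 3 for the difference between effects and for the averaged effect. A call lost under it is therefore not evidence of no difference. Under this replicate block Gpr83 in B6 (limma adjusted p = 0.173), its difference between strains (0.234), Lrrc32 between treated strains (0.0555) and the averaged Foxp3 effect (0.121) were not called, and Tnfrsf18 turned to -0.03 for the difference between effects. No paired analysis was possible for untreated strains because they share only 1 number.

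Scaling moved the split of calls between untreated strains from 2990 higher and 2631 lower to 1914 and 5974 with TPM, 2360 and 4570 with quantile normalization, 3033 and 787 with T cell markers, and 3666 and 1770 without immunoglobulin genes. For treated strains it moved from 3881 and 2955 to 2442 and 4480 with TPM and 2643 and 4821 with quantile normalization. In B6 it moved from 1146 and 802 to 996 and 1051 with quantile normalization and 1839 and 375 with T cell markers. For the difference between effects it moved from 166 and 312 to 12 and 208 with T cell markers and 92 and 356 with median centring, and for the averaged effect from 349 and 76 to 433 and 20 with TPM.

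Small differences that were not called changed sign. In B6 these were Tnfrsf18 with TPM (-0.00) and Lrrc32 with quantile normalization (-0.04). In SLE123 they were Ctla4 (-0.00) and Il10 (-0.02) with T cell markers, Il10 with voom (-0.00) and Nrp1 with TPM (0.11). Between untreated strains Il2ra (-0.05) and Gpr83 (-0.24) turned with TPM and Gpr83 with quantile normalization (-0.21). For the difference between effects, T cell markers turned Foxp3 (-0.06), Il2ra (-0.01), Ikzf2 (-0.07), Ctla4 (-0.12) and Tnfrsf18 (-0.04), voom turned Foxp3 (-0.01) and Ctla4 (-0.03), Ctla4 was -0.03 with median centring and -0.03 without immunoglobulin genes, and Tnfrsf4 was 0.04 with TPM. Il10 relative to Foxp3 in B6 was 0.49 with a pseudocount of 0.1.

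With each mouse left out, values ran from -0.1 to 0.22 for Ctla4, -0.05 to 0.09 for Tnfrsf18 and -0.01 to 0.11 for Lrrc32 in B6, from -0.16 to 0.04 for Nrp1 and -0.06 to 0.25 for Il10 in SLE123, and from -0.03 to 0.18 for Gpr83 between untreated strains. The difference between effects ran from -0.07 to 0.25 for Foxp3, -0.02 to 0.25 for Il2ra, -0.01 to 0.18 for Ikzf2 and -0.14 to 0.18 for Ctla4, and the averaged effect of Ctla4 from -0.01 to 0.15. Il10 relative to Foxp3 in B6 ran from -0.23 to 0.09, and Tnfrsf4 relative to Tnfrsf18 in SLE123 from -0.05 to 0.09. The planned edgeR fit was not run, since the table holds FPKM. Depth limits Il10 in B6, at 5 to 31 fragments per library.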
